A study of Homo sapiens with 6 samples.

Results

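Intermediate filaments are the third filament system of the animal cell beside actin and microtubules. The peaks of 10 of their genes are described here: nestin (NES), synemin (SYNM), vimentin (VIM), the lamins LMNA, LMNB1 and LMNB2, and the keratins KRT7, KRT8, KRT18 and KRT19. Members were taken by position, as every row of either deposited peak list inside the GRCh38 span of one of these genes. The spans held 38 of the 18431 peaks of the MeTDiff list, counted on the strand of the gene, and 26 of the 6264 summits of the MACS2 list. The 10 genes stand among 20050 protein-coding genes of the RefSeq table.

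The RNA came from PANC-1, an established cell line grown from a human pancreatic ductal adenocarcinoma. The cells were transfected with siRNA, either against TRMT5 for a depletion of 4 days (1 input library and 2 precipitates) or as control (1 input library and 2 precipitates). The sample titles call these groups TRMT5 KD and WT control and place all libraries in experiment 1. TRMT5 is the methyltransferase that puts N1-methylguanosine (m1G) beside the anticodon of tRNAs, and its gene stands with NES in the title of the study. In every precipitate, fragments of polyA+ RNA had been pulled down with an antibody against m1G. Both lists belong to the whole series and mark no library or condition, so no value below is split into depleted and control cells. No value has a replicate error, and no test over samples was possible. The lists give no read counts, so the depth behind each value is unknown.

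Proteins of this family share a central coiled-coil rod and differ in their head and tail domains. Keratins pair as one type I and one type II chain, and KRT8 with KRT18 is the basic pair of simple epithelia, to which KRT7 and KRT19 add in ducts. Vimentin is the type III filament of mesenchymal cells and of carcinoma cells that take on mesenchymal traits. Nestin and synemin have very long tails and assemble with vimentin, and nestin is known from progenitor cells. Lamins form the mesh under the inner nuclear membrane, LMNA giving lamins A and C, and LMNB1 and LMNB2 the B-type lamins.

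Sequence was at hand in RefSeq for a pair of places where a peak edge could be read against it (GRCh38.p14). The KRT8 run shows where the blocks of a peak are joined. It is the end of the hairpin of MIR9898, a miRNA annotated inside KRT8 (chromosome 12, 52898889 to 52898918 on the minus strand), with the last 2 bases before the join in capitals. The SYNM run shows the first 23 bases of its strongest peak (chromosome 15, 99105107 to 99105129 on the plus strand), with G, the base that becomes m1G, in capitals.
KRT8: ccuguccccuaccccacAGagggcuucccu
SYNM: aGGccGGaGcGtcGcGGcGGaGa
In KRT8 the block began directly after AG, the dinucleotide that ends introns, and 11 bases of the hairpin lay inside the peak. In SYNM 12 of the 23 bases were G, against a median of 7 at the same distance from the start over 35116 promoter entries, of which 9.82% had at least 12. Which G, if any, carried the methyl group cannot be read from a peak.

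Of the 10 genes, 9 had a MeTDiff peak and 8 a MACS2 summit, and the same 8 had both. Among protein-coding genes 37.1% had a MeTDiff peak, 18% a summit and 16.8% both. KRT7 had neither, and LMNB1 had 2 peaks but no summit. Having a peak requires a transcribed gene, and the lists hold no expression values, so the absence of KRT7 does not tell an RNA without m1G from an RNA that was scarce. The number of peaks ran from 2 to 11 in genes with any, LMNB2 having 11, KRT8 6, NES and LMNA 5 each and SYNM 3. Of the 9 genes, 4 had 5 or more peaks, as had 12.3% of all genes with a peak. NES had the most summits, 6, followed by SYNM, VIM, LMNA and LMNB2 with 4 each. A count of 4 or more was reached by 5 of these 8 genes and by 7.01% of all genes with a summit.

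**Figure D1:**
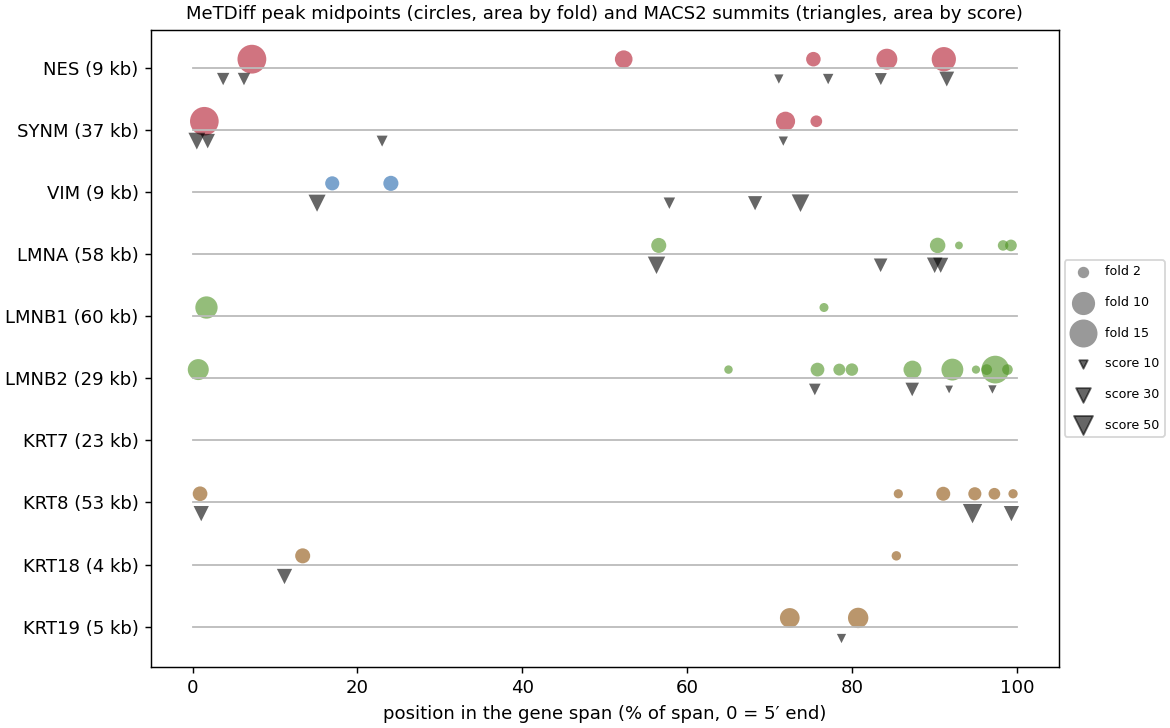
Position of every MeTDiff peak midpoint (circles, area by fold enrichment) and every MACS2 summit (triangles, area by score) of the 10 genes. The x axis is the position in the gene span in percent from the 5′ end, and the span length in kb stands beside each gene. NES, SYNM, LMNB1 and LMNB2 have a large circle near the 5′ end, KRT7 has no mark, and the triangles of VIM lie mostly where it has no circle.

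Nestin had long, strong peaks at both ends of its gene. The peak nearest the 5′ end (chromosome 1, 156673484 to 156677258) had a fold enrichment of 18.2 (FDR 2.8e-07), which stood above 97.0% of all MeTDiff peaks, ties shared equally. It joined blocks of 777, 125 and 44 bases across gaps of 1141 and 1688 bp and began 149 bp into the gene. The second peak was short, with 100 bases at 6.82-fold (156672839 to 156672938), and held no summit.

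The remaining 3 peaks of NES lay towards the 3′ end, with 4.64-fold over 697 bases (156670552 to 156671248), 9.62-fold over 349 bases (156669956 to 156670304) and 12.9-fold over 648 bases (156669210 to 156669857). They covered 1694 of a stretch of 2039 bp, or 83.1% of it, so that most of this stretch was in a peak. Before it came 1590 bp with no peak. Folds increased along the stretch towards the 3′ end. The scores of the summits there increased in the same order, with 12.01 at 156671262, 15.1 at 156670745, 20.0 at 156670193 and 30.9 at 156669502. Near the 5′ end the summits at 156677086 and 156676868 had scores of 21.3 and 21.7 and lay 218 bp apart. The FDR values of the 5 peaks were from 1.8e-07 to 6.5e-06. The third and the fourth peak shared 1 deposited p-value, 3e-07, so their FDR values are not separate measurements.

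**Figure D2:**
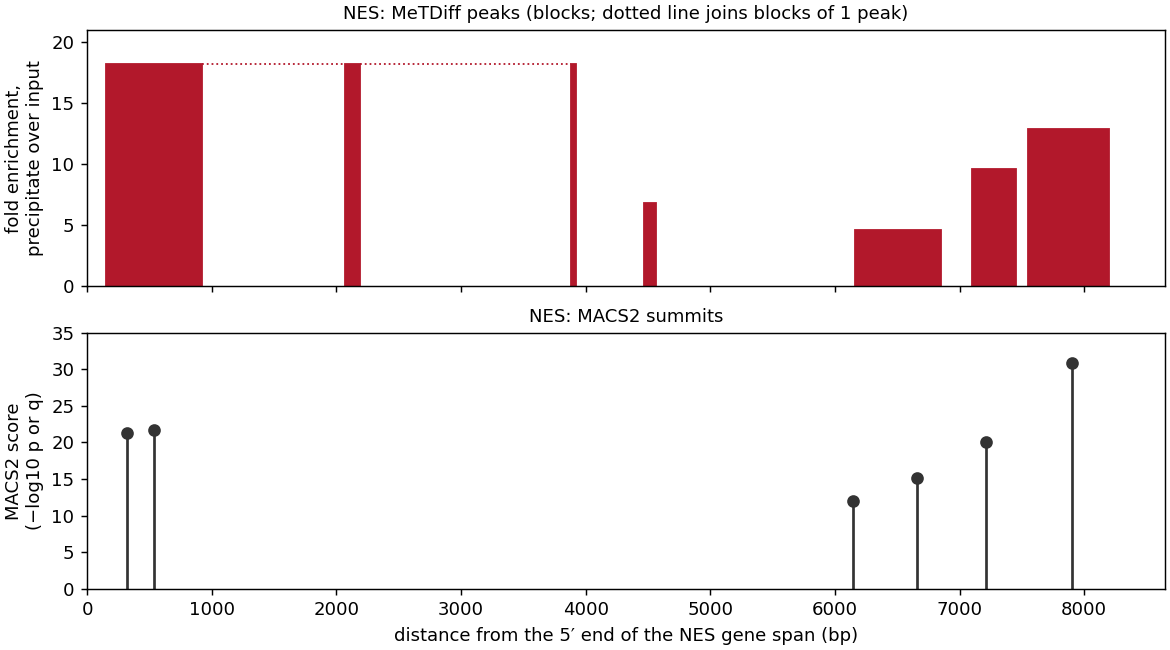
NES from its 5′ end (left) to its 3′ end, x axis in bp from the 5′ end of the span. The upper panel shows the blocks of the 5 MeTDiff peaks with their fold enrichment as height and dotted lines joining blocks of 1 peak, and the lower panel the 6 MACS2 summits with their scores. Folds of 4.64, 9.62 and 12.9 and scores from 12.01 to 30.9 climb side by side towards the 3′ end, and 18.2-fold stands alone at the 5′ end.

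The MACS2 caller had placed the 4 summits of the 3′ stretch in a single peak. Among its 5921 peaks, 3 had 4 or more summits, and the other two lay in FADS2, a fatty acid desaturase gene, with 4, and in PLEC, which encodes the linker protein plectin, with 5. FADS2 and PLEC are named here because their values were seen. In the MeTDiff list, NES was the only ID with 3 blocks of 600 bases or more, a length chosen after the values were seen, and 65 such blocks existed in all. Its peaks covered 31.7% of the span. The number of bases covered, 2740, ranked 18th among 7432 genes with a peak. By number of peaks alone NES was less extreme, at the 90.1st percentile of these genes.

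Synemin, the other filament gene with a long tail, resembled NES at its 5′ end. Its first peak (chromosome 15, 99105107 to 99113685) had a fold of 18 (FDR 0.000479), joined blocks of 903 and 95 bases and began 27 bp into the gene, at the sequence printed above. Summits with scores of 39.4 and 29.3 lay inside its first block. The other peaks of SYNM had 8.08-fold (99131358 to 99131557) and 3-fold (99132753 to 99132902), with weaker FDR values of 0.0129 and 0.0219. The 8.08-fold peak overlapped a peak of 7.96-fold on the opposite strand (99131412 to 99131510), which belonged to another ID. Which strand its summit of score 12.01 belongs to is not given, since summits carry no strand. The last peak of SYNM lay 8865 bp before the 3′ end, whereas the last peak of NES lay 447 bp before it.

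Vimentin had folds near the list median and high scores, and the 2 callers shared only the place of its first summit. Its 2 MeTDiff peaks had 4.37-fold (chromosome 10, 17229626 to 17230043) and 5-fold (17230441 to 17230540), with midpoints 1584 and 2249 bp from the 5′ end of a span of 9353 bp. Of its 4 summits the first, with a score of 40.8, lay inside the 4.37-fold peak. The others had scores of 18.3, 28.0 and 43.4 and lay 3108, 4080 and 4595 bp from any VIM peak, further towards the 3′ end. The 43.4 at 17235135 stood above 93.5% of all summits, in a part of VIM where MeTDiff listed nothing. In the first peak, 197 bases were also listed on the opposite strand (17229789 to 17229985, 4.15-fold), within the span of the antisense gene VIM-AS1. The FDR there was 1e-13, against 9.5e-05 for the VIM peak itself, and reads of the pair cannot be told apart where strand was not used in counting, which is not given in the sources used here.

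The lamins held 18 of the 38 peaks. Folds over 10 occurred in LMNB1 and LMNB2, while LMNA stayed at 5.26 or less. LMNA had folds of 4.97, 5.26, 1.33, 2.42 and 3 from its 5′ to its 3′ side. Its first peak (chromosome 1, 156114832 to 156123198) began 32259 bp into the span, and its block of 443 bases held the highest LMNA summit, with a score of 42.4 at 156114925. The span has 3 starts in the promoter table, the last at 156106716, and all LMNA peaks lay beyond them. Exon annotation was not used, so whether the first peak lies at the start of some other LMNA transcript cannot be told. The second peak joined 5 blocks over 600 bases (156129892 to 156135241), and the 3 other summits, with scores of 25.9, 33.6 and 31.9, fell between its blocks. LMNB1 had 10.9-fold close to its 5′ end (chromosome 5, 126777519 to 126777767, FDR 0.000708) and 1.78-fold in a peak of 3 blocks further on.

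LMNB2 had the most peaks of all 10 genes and the widest range of folds. Its 11 peaks had folds from 1.48 to 16.9 with a median of 3.42, and 7 of them lay beyond 79.9% of the span. The 16.9-fold peak (chromosome 19, 2428859 to 2429009) was 768 bp from the 3′ end by midpoint, and its neighbour at 2429159 to 2429308 had 2.52-fold. The peak at the 5′ end (2444480 to 2456909) had 9.67-fold and began 50 bp into the gene. Most peaks of LMNB2 shared their p-value with another, so that the FDR of 0.000708 was the same for 16.9-fold, 2.52-fold and 1.48-fold. Its 4 summits had scores of 18.9, 25.7, 8.40 and 9.69, the first pair above and the others below the list median of 16.4, and only the 25.7 lay inside a peak.

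Among the keratins, KRT8 had the highest score of all 10 genes and, of the 9 with a peak, the lowest largest fold. Its highest summit had a score of 52.1 at 52900048 on chromosome 12, above 96.5% of all summits. It lay in the peak of 3.77-fold whose join is printed above (52898877 to 52900051). The other KRT8 peaks had folds of 4.72, 1.85, 4.31, 3 and 1.89. The RefSeq span of KRT8 begins before its 1 start in the promoter table, 52926469, so percent of span is not place along the mRNA. By midpoint, 5 of the 6 peaks lay at 85.6 to 99.5% of that span. The remaining one, 4.72-fold at 52949256 to 52949505, lies where the span of KRT8 overlaps KRT18. It covers nearly the same bases as the 4.95-fold peak of KRT18 on the opposite strand (52949248 to 52949545). A summit with a score of 32.6 at 52949305 lies in both, and to which keratin it belongs cannot be told apart. Without that place, the largest fold of KRT8 was 4.31, and KRT18 had 1 peak of 1.95-fold and no summit. KRT18 and not KRT8 then had the lowest largest fold.

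KRT19, the smallest keratin and a marker of ducts, had 2 peaks of 101 bases each with 8.5-fold (chromosome 17, 41524861 to 41524961) and 9.12-fold (41524472 to 41524572). These folds were above those of KRT8. Its better FDR, 0.00759, was the weakest such value of the 9 genes. Its summit had a score of 11.9, the lowest of any member's highest score, and lay 45 bp outside a peak.

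By fold NES and SYNM came first, and by score KRT8, VIM and LMNA did. By largest fold the order was NES (18.2), SYNM (18), LMNB2 (16.9), LMNB1 (10.9), KRT19 (9.12), LMNA (5.26), VIM (5), KRT18 (4.95) and KRT8 (4.72). The folds of KRT18 and KRT8 are both from the place where their spans overlap. The lead of NES over SYNM was 18.2 against 18, and with no error to either value their order cannot be told. By highest score the order was KRT8 (52.1), VIM (43.4), LMNA (42.4), SYNM (39.4), KRT18 (32.6, shared with KRT8), NES (30.9), LMNB2 (25.7) and KRT19 (11.9). VIM, LMNA and KRT8 were ahead of NES in score, while their largest folds were below 6, the median largest fold of all genes with a peak. Over all peaks of a family the median fold was 8.85 for NES with SYNM (8 peaks), 4.685 for VIM (2 peaks), 3.27 for the lamins (18 peaks) and 4.04 for the keratins (10 peaks). Spearman's rho between largest fold and highest score was -0.60 over the 8 genes with both and 0.37 over all 3371 protein-coding genes with both. These are descriptions across genes that share all libraries. KRT8 and KRT18 enter the rho of the 8 genes with folds from their shared locus. The score of KRT18 there is that of the summit shared with KRT8.

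**Figure D3:**
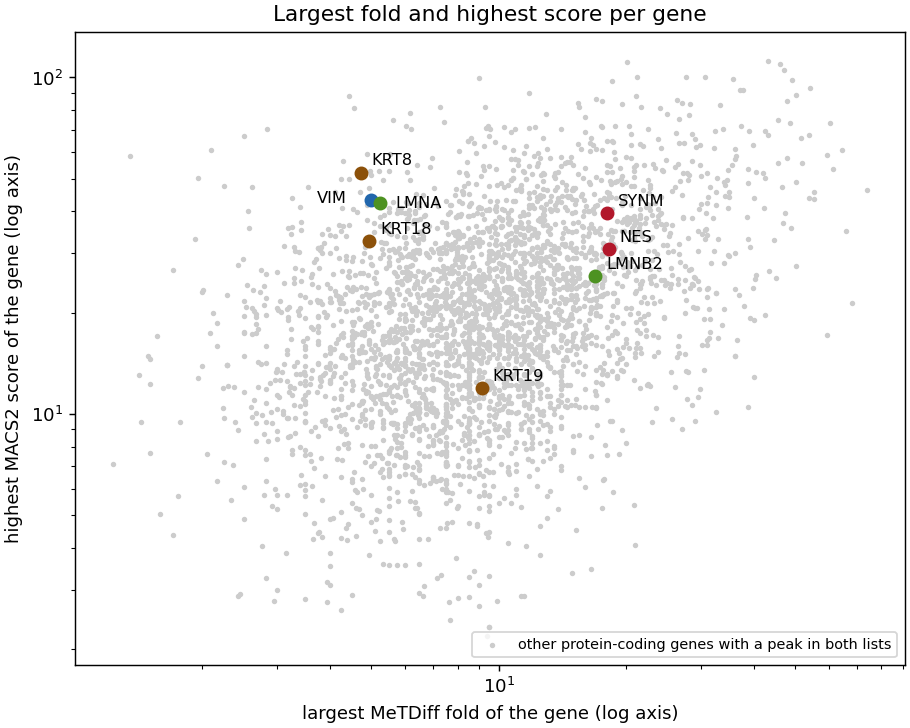
Largest MeTDiff fold (x, log axis) and highest MACS2 score (y, log axis) per gene, for the 8 intermediate filament genes with both (coloured by family, named) and the other protein-coding genes with both (grey). NES, SYNM and LMNB2 sit to the right at folds of 16.9 to 18.2, and KRT8, VIM, LMNA and KRT18 sit to the left at folds of 4.72 to 5.26 and scores of 32.6 to 52.1.

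NES and SYNM had the longest blocks among the members. The longest block had 777 bases in NES and 903 in SYNM, against 443 in LMNA, 360 in VIM, 298 in KRT18, 277 in KRT8, 249 in LMNB1, 240 in LMNB2 and 101 in KRT19. The median MeTDiff peak covered 150 bases. NES covered 2740 bases in 5 peaks, whereas LMNB2 covered 1710 in 11. How much exon sequence each gene offers was not used here, so these lengths are not relative to the length of the mRNA.

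**Figure D4:**
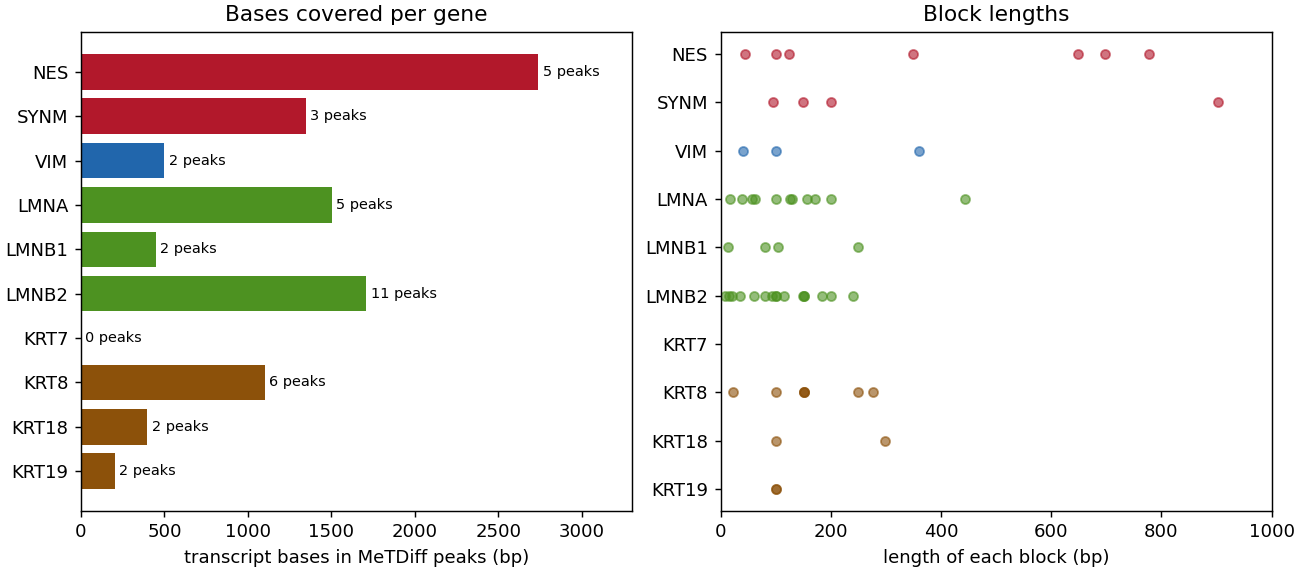
Left, transcript bases covered by MeTDiff peaks per gene (bars from 0, number of peaks beside each). Right, the length of every block in bp, one point per block. NES has the longest bar at 2740 bp and 3 blocks over 600 bp, and the only other block of that length is the 903 bp block of SYNM.

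Taking the 38 peaks as a set, 21 had a fold above the median of the list (50% of all peaks) and 30 an FDR below its median of 0.00129 (49.9% of all peaks). Of the 26 summits, 20 had a score above the list median of 16.4 (50% of all summits). Joined peaks of several blocks were 13 of 38, against 33.1% in the list. At the ends of the gene spans, 2 peaks lay within 500 bp of the 5′ end by midpoint. These were 1 of LMNB2 and 1 of KRT8 at the KRT18 locus. The KRT8 peak lies before the start of KRT8 in the promoter table, 52926469. It is thus at the 5′ end of the span but not at that start. Within 500 bp of the 5′ end lay 17.1% of peak-gene pairs over protein-coding genes, in which a peak counts again for every gene it was assigned to. Within 500 bp of the 3′ end lay 3 peaks, 1 each in LMNA, LMNB2 and KRT8, against 6.63% of pairs. Member peaks were counted without such repeats. An overlapping peak on the opposite strand was present for 4 of 38, 1 each in SYNM, VIM, KRT8 and KRT18, against 7.16% of the list. A p-value shared with another peak of the gene was held by 16 of 38, against 28% of the list.

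Agreement of the callers in place was partial. Inside a MeTDiff peak of their gene lay 13 of the 26 member summits (50%, 95% Wilson interval 32.1 to 67.9, counting error only). Over protein-coding genes the share was 36.7% of summit-gene pairs, in which a summit counts again for every gene whose span holds it. Member summits were counted without such repeats, so the shares are not strictly alike. In the other direction, 12 of the 38 peaks held a summit, against 12.4% of all MeTDiff peaks. NES had 5 of its 6 summits inside a peak, and the sixth lay 14 bp outside. LMNA had 1 of 4, LMNB2 1 of 4 and VIM 1 of 4.

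Most summits outside peaks were close to one. Of the 13 summits outside peaks, 5 fell in the gap between joined blocks of a MeTDiff peak, a stretch that the list leaves out of the peak: 3 in LMNA, 1 in SYNM and 1 in LMNB2. All of these 5 lay just before the next block on the strand of the gene, at 64, 81 and 64 bp in LMNA, 78 bp in SYNM and 63 bp in LMNB2. LMNA and SYNM are on the plus strand and LMNB2 on the minus strand. Over all protein-coding genes 18.9% of summit-gene pairs fell in such a gap. Of those, 69.8% lay within 100 bp before the next block (783 pairs, with 155 within 100 bp after the previous block). Counting summits within 100 bp of a block, 23 of the 26 were at a peak, against 77% of summit-gene pairs over protein-coding genes. The 3 that were not are those of VIM.

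**Figure D5:**
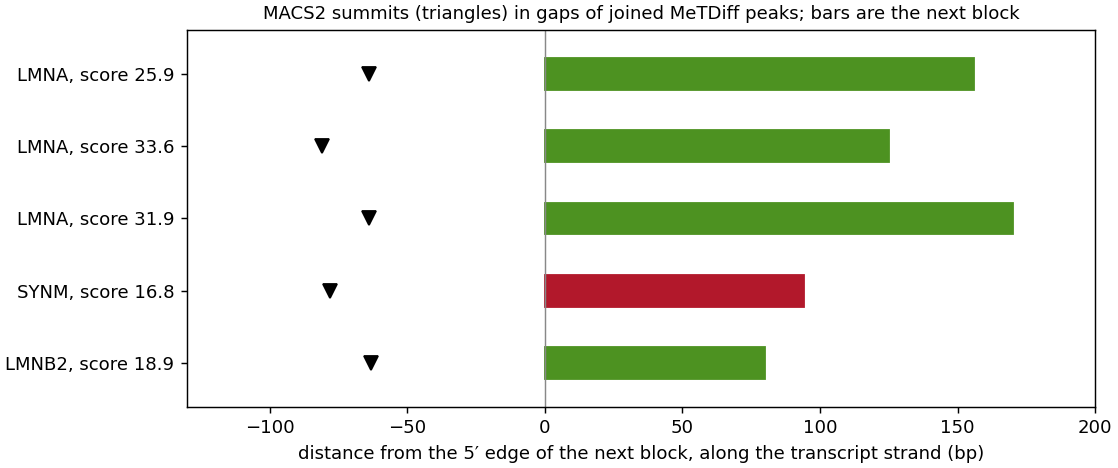
The 5 summits that fall between joined blocks of a MeTDiff peak (triangles), drawn along the strand of the gene relative to the 5′ edge of the next block (0 bp, bars show that block). All 5 triangles stand left of the edge, from 63 to 81 bp before it.

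Other genes of the family had few peaks. Of 42 further cytoplasmic intermediate filament genes, among them desmin, the neurofilament genes and the keratins of stratified epithelia, 2 had a MeTDiff peak and 0 a summit, against 37.1% and 18% of protein-coding genes. These were BFSP1, a filament gene of the eye lens, with 5-fold, and KRT10, a keratin of epidermis, with 2-fold. Each had 1 peak of 100 bases. As for KRT7, an absent peak does not tell an RNA without m1G from an RNA that was scarce.

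Most partners of the lamins had a peak. Of 16 genes for lamina-binding proteins of the nuclear envelope and for lamin processing enzymes, 13 had a MeTDiff peak and 5 a summit, against 37.1% and 18% of protein-coding genes. LEMD2, an inner nuclear membrane protein gene, had 3 peaks, the strongest of 17.3-fold, over 1249 bases. SUN2 and SUN1, whose products link the lamina to the cytoskeleton, had 7 peaks with up to 11.7-fold and 6 peaks with up to 5.21-fold. SUN1 had the highest score among these partners, 52.6, and SUN2 had 37.2. Emerin (EMD) reached 11.2-fold, NARF 9.10-fold and SYNE3 9-fold. LBR had 5.75-fold, FNTB, a farnesyltransferase subunit gene, 5.5-fold, and ICMT, the methyltransferase of prenylated proteins, 3.83-fold. SYNE1 had 3.50-fold, BANF1 3.09-fold and TMPO 2.08-fold. The median of the largest folds was 5.5 in this list and 6 over all genes with a peak. Levels of these RNAs were likewise unknown, so the counts of this list and the previous one do not compare m1G between them.

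Markers of ductal epithelium had a MeTDiff peak in 5 of 7 cases, KRT8, KRT18 and KRT19 with EPCAM at 3.75-fold and MUC1 at 1.83-fold, while KRT7 and CDH1 had none. Mesenchymal markers had one in 2 of 4, VIM and CDH2 (8.64-fold). No acinar (0 of 4), endocrine (0 of 3) or endothelial marker (0 of 2) had a peak, and 1 of 2 haematopoietic markers had one, CD68 with 5.17-fold. Peaks mark enriched fragments and not levels, so these counts do not measure cell identity.

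The genes nearest to NES in number of peaks, number of summits, largest fold and highest score, each as a percentile over the 3371 genes with both, were LYNX1 with its readthrough gene LYNX1-SLURP2, which hold the same peaks, then B4GALT2, MVP and RPS9. MVP, the major vault protein gene, had 6 peaks, 6 summits, 18.6-fold and a score of 31.9. Among the filament genes LMNB2 and SYNM were the nearest, at ranks 79 and 160 of 3370. KRT18 was the farthest, at rank 2361.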

How the data were processed

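Input and anti-m1G precipitate libraries of PANC-1 cells were compared by the authors, who deposited 2 peak lists for the series. Per the submitters' processing notes the build was GRCh38 and the tools included STAR 2.7.1 and MACS2 2.2.5. Settings and pooling: not given in the sources used here. The deposited MACS2 score is a −log10 p-value or q-value (which was not stated). The deposited MeTDiff list gives a p-value, the log10 of the p-value and of the FDR, and a ratio, the fold of precipitate over input (columns identified by their order and values).

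Peaks were assigned by the middle base of their blocks and by strand, summits by position, to RefSeq spans (GRCh38.p14). Strand came from the promoter table, which holds 7 of the 10 members and 15843 of 20050 genes, and otherwise from most peaks in the span. Positions are 1-based. Shares have 95% Wilson intervals. The assignment was checked on simulated data (Python 3.11.15). No test was run. Members and gene lists were chosen with earlier results of these data known. All members were named, and list genes with a peak, up to 12 by fold. UTR and exon annotation was not used here.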

Additional observations from a re-analysis of the deposited data

How the results depend on the processing

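No paired analysis was possible because the lists hold no values per library. Of 21 alternatives, 4 of them chosen after seeing the data, 13 left the result in place. Keeping folds at or above the list median left 21 peaks of 38, by construction. The share of summits inside peaks, 50%, was 69.2% with whole peak spans (55.7% of summit-gene pairs over protein-coding genes). It was 88.5% within 100 bp of a block (77% of pairs). Without summits in the span of another gene it was 40.9% (9 of 22), and the like share over protein-coding genes was not computed. Peaks at the 3′ end numbered 0 within 250 bp, 3 within 500 bp and 8 within 1000 bp. At the 5′ end they numbered 1, 2 and 5, so neither count is firm. Shares over protein-coding genes were computed for 500 bp only. NES ranked 1 in peaks per kb of span and 3 in number of peaks. It stayed at rank 1 by median fold, by second largest fold and over peaks with a summit. Unknown depth limits all values.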

Other observations

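KRT8 and KRT18 have many processed copies, and the RefSeq table lists 52 pseudogenes of KRT8, 68 of KRT18 and 5 of KRT19. Of these, 1 held a summit, KRT8P3, and 0 held a MeTDiff peak. How reads that match several copies were assigned is not given in the sources used here, so the keratin values are uncertain to that extent.

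Folds under 10 on steps of 0.25 (within 0.005) were 5 of 32 for the filament genes, against 38% of the list. NES had 0 of 3.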
